A study of Mus musculus with 4 samples.

Results

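Genes of prostaglandin E2 synthesis, breakdown and reception were followed in EO771 cells, a mouse mammary carcinoma line, exposed to extracellular A-FABP. The set holds 10 genes fixed by name, of which 6 encode enzymes (Ptgs1, Ptgs2, Ptges, Ptges2, Ptges3 and Hpgd) and 4 encode the E-type prostanoid receptors (Ptger1 to Ptger4). Of these, 8 were measured among 22180 genes in all, each by 1 probe set that the platform annotation assigns to that gene alone. Ptgs1 and Ptger1 had no such probe set and were not analysed here, so the comparison of enzymes with receptors rests on 5 enzymes and 3 receptors.

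The A-FABP cultures (2 arrays) received recombinant mouse A-FABP at 100 ng/ml in culture medium, and the control cultures (2 arrays) received PBS. All cultures had grown for 24 hours, to a confluence of at least 70%, beforehand. A-FABP (adipose fatty acid binding protein, encoded by Fabp4) carries fatty acids inside fat cells and macrophages and is also secreted. The comparison asks how carcinoma cell transcripts respond to the protein when it comes from outside. How long the exposure lasted was not stated in the labels read here. For the control arrays, the description field mentions A-FABP as well. Their title and source name, and the design of the series, contradict it, and the titles were followed. The titles call the arrays biological replicates, and nothing further says how the cultures were separated.

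Prostaglandin E2 is made from arachidonic acid, which phospholipases free from membranes. The cyclooxygenases (Ptgs1 for the constitutive form, COX-1, and Ptgs2 for the inducible form, COX-2) convert it to the intermediate prostaglandin H2, and the prostaglandin E synthases turn that into prostaglandin E2. The receptors EP1 to EP4 sit at the cell surface: EP2 and EP4 raise cyclic AMP, EP3 mostly lowers it and EP1 raises calcium. Hpgd encodes the dehydrogenase that inactivates prostaglandin E2. In mammary tumours the pathway is known for its ties to inflammation and to immune suppression.

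On these arrays Ptgs2 lay higher with A-FABP and Ptger4, the gene of the EP4 receptor, lay lower. Arrays of the groups did not overlap in either gene, as in 53.5% of all genes (26% higher and 27.5% lower with A-FABP). Neither Ptgs2 nor Ptger4 passed the threshold. With limma over all 41345 probe sets and Benjamini-Hochberg adjustment, 0 of the 8 measured genes had an adjusted p under 0.05, on a background of 0% of all probe sets. At an unadjusted p under 0.05 there were 2 of the 8, Ptgs2 on the higher side and Ptger4 on the lower side, where 13% of all 22180 genes reached that level (4.81% higher and 8.24% lower with A-FABP). Over the alternatives that kept all 4 arrays, 1 to 3 of the members in the fit reached that unadjusted p. The count of 1 came with only probe sets at or above the median level, which drops the receptors and Hpgd. What follows is therefore given as values and not as calls.

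The promoter stretches of these 2 genes are shown because they were the members at an unadjusted p under 0.05, in opposite directions. Sequences are from RefSeq (GRCm38.p6), 5′ to 3′ on the gene's strand, and cover the 250 bases before the annotated start. The Ptgs2 stretch is chr1:150099781-150100030 on the plus strand, and the Ptger4 stretch is chr15:5244188-5244437 on the minus strand. A further stretch, chr1:150100034-150100063 on the plus strand, gives 30 bases just after the annotated Ptgs2 start. Capitals mark letters matched by a searched motif.
Ptgs2: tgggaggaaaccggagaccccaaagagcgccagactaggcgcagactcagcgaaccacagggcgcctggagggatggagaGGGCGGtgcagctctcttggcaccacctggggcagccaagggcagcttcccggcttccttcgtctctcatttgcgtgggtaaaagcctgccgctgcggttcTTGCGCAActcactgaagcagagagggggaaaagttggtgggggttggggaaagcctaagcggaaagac
Ptgs2, after the start: gtcaccactaCGTCACGTGgagtccgcttt
Ptger4: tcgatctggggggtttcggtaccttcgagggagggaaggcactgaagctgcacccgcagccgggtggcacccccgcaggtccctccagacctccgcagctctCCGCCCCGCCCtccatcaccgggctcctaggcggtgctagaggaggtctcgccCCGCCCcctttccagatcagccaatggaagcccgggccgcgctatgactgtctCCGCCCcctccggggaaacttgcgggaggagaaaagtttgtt

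The motifs searched, on both strands and within 300 bases (250 before and 50 after the start), were the cyclic AMP response element half-site TGACG, the E-box CACGTG, the C/EBP site TTGCGCAA, the TATA box TATAAA, the AP-1 site TGANTCA, the GC box GGGCGG and the NF-kB consensus. In the Ptgs2 window the C/EBP site began 69 bases before the start, a match found in 0.183% of 32851 promoter windows in the RefSeq table. Just after the start, a half-site on the opposite strand (20.8% of windows) overlapped an E-box (7.15% of windows), and 1 GC box lay further upstream (35.7% of windows). The Ptger4 window held 4 GC boxes, 2 of them sharing a base, and none of the other motifs searched. The NF-kB consensus, present in 4.51% of windows, was in none of the 9 windows found for the 10 genes, and neither was the AP-1 site (7.81% of windows). Among the other genes, the E-box was in the Ptges2 window, before the start. The half-site was in the Ptges3 window and the TATA box letters, which 13.6% of windows hold, in the Hpgd window, both after the start. GC boxes were also in the windows of Ptges (2), Ptges3 (4), Ptger3 (3) and Hpgd (1). These are letter matches in 1 window per gene, placed by 1 annotated start. They say nothing of binding, nor of sites outside the window, such as those more than 250 bases before that start.

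Values below are log2 expression after RMA, as the authors deposited them, and differences are A-FABP minus PBS on that scale with the SE of the limma fit. Levels of different probe sets cannot be set against each other, so genes are compared by their differences only. The 4 arrays had median log2 values of 5.95 to 6.03. Detection was not called, and RMA compresses differences of dim and very bright probe sets.

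The cyclooxygenase gene Ptgs2 measured 7.78 and 7.85 on the A-FABP arrays, against 7.29 and 7.39 on the PBS arrays. The A-FABP pair stood clear above the control pair, and the gap of 0.39 between the nearest arrays of the groups exceeded the spread within either. The fitted difference was 0.48 ± 0.09 (SE, n = 2 per group, 95% CI 0.23 to 0.72), a 1.39-fold higher level, with a limma adjusted p of 0.296 and an unadjusted p of 0.00596. Of the 2182 genes whose mean level lay within 0.5 of that of Ptgs2, which had a median difference of 0.09, 33 had a higher difference. With n = 2 per group, exact permutation of the arrays allows no two-sided p below 0.33.

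**Figure D1:**
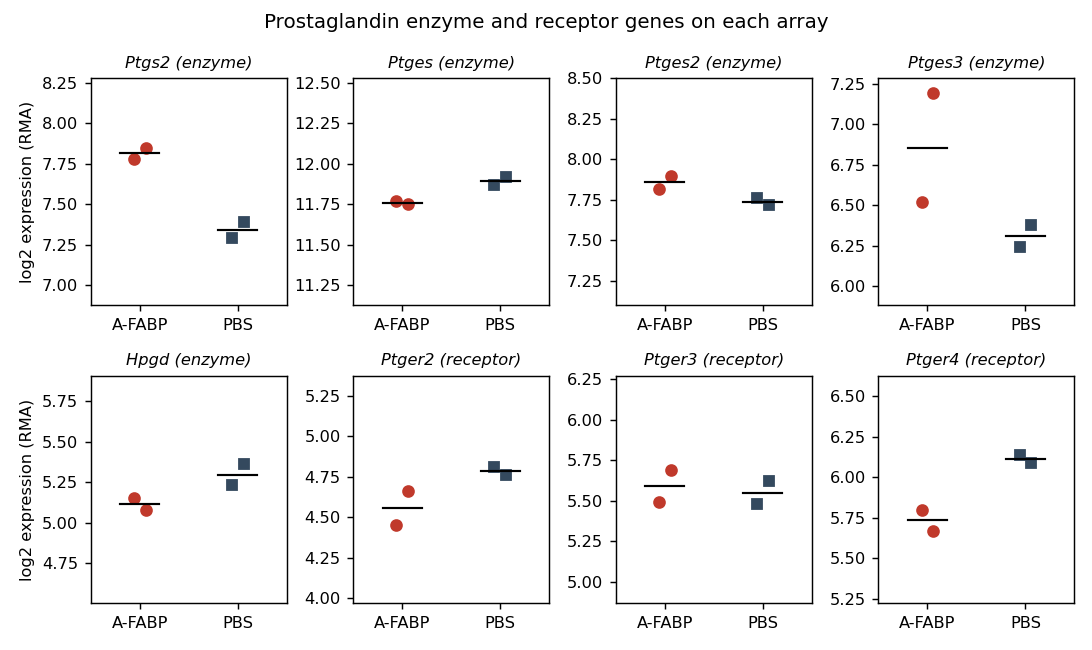
Log2 expression (RMA) of the 8 measured genes on each array, with A-FABP arrays as red circles, PBS arrays as dark squares and black lines for group means (n = 2 each). Every panel spans the same range on the log2 scale. Ptgs2 sits higher with A-FABP on both arrays, Ptger4 sits lower, Ptger3 overlaps, and the A-FABP arrays of Ptges3 stand far apart at 6.52 and 7.19.

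With the 4 arrays as deposited and limma's default moderation, none of the 3 prostaglandin E synthase genes had an unadjusted p under 0.05. With limma's trend and robust settings, Ptges did (unadjusted p = 0.0115, adjusted p = 0.215). Ptges encodes the microsomal synthase mPGES-1, the inducible partner of COX-2. It measured 11.77 and 11.75 with A-FABP, against 11.87 and 11.92 with PBS. The A-FABP pair lay below the control pair by a small margin, and the difference was -0.13 ± 0.08 (95% CI -0.35 to 0.09, limma adjusted p = 0.47). After median centring it was -0.07, with the median over all genes moved from -0.01 to 0.05. Of the 428 genes at a like level, whose differences had a median of 0.01, 20 lay lower. Its interval does not overlap that of Ptgs2, and the difference between the 2 genes was not tested.

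Ptges2, which encodes a membrane-associated synthase also named mPGES-2, measured 7.82 and 7.90 with A-FABP, against 7.76 and 7.72 with PBS. The groups were 0.06 apart at their nearest arrays. The difference was 0.12 ± 0.08 (95% CI -0.11 to 0.35, limma adjusted p = 0.528), beside a median of 0.10 for the 2289 genes at a like level. It was 0.08 without A-FABP replicate 2 and 0.06 after quantile normalization.

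Ptges3 encodes p23, a co-chaperone of Hsp90 that is also described as a cytosolic prostaglandin E synthase. Its own probe set measured 6.52 and 7.19 with A-FABP, against 6.24 and 6.38 with PBS. The A-FABP arrays were far apart from each other (SD 0.47, against 0.10 with PBS), with the second well above the rest. The difference of 0.55 ± 0.26 had a 95% CI from -0.17 to 1.26 (limma adjusted p = 0.394), and it was 0.21 without A-FABP replicate 2 and 0.88 without A-FABP replicate 1. A further 2 probe sets name Ptges3 together with its pseudogene Ptges3-ps and therefore stand for no gene here. The brighter of them measured 11.85 and 11.78 with A-FABP, against 11.78 and 11.66 with PBS. Its difference of 0.10 ± 0.09 had a 95% CI from -0.16 to 0.35. The other measured 10.17 and 10.32 with A-FABP, against 10.14 and 10.21 with PBS, with overlapping groups and a difference of 0.07 ± 0.10. Both shared probe sets thus differed by less than the single-gene one, whose interval includes their values.

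Hpgd, the gene of the inactivating dehydrogenase, was dim, at 5.15 and 5.08 with A-FABP, against 5.23 and 5.36 with PBS. The A-FABP pair lay below the control pair, by 0.07 at the nearest arrays. The difference of -0.18 ± 0.09 (95% CI -0.44 to 0.09, limma adjusted p = 0.435) stood beside a median of -0.14 for the 4441 genes at a like level. It was -0.11 without PBS control replicate 2 and -0.06 after cyclic loess.

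The measured receptor genes were all below the array medians or near them. Ptger4 measured 5.80 and 5.67 with A-FABP, against 6.14 and 6.09 with PBS. The A-FABP pair stood clear below the control pair, with a gap of 0.29 that was wider than the spread within either group. The difference was -0.38 ± 0.09 (95% CI -0.63 to -0.13), which is 1.3-fold lower with A-FABP, with a limma adjusted p of 0.296 and an unadjusted p of 0.0143. Of the 4733 genes at a like level, whose median difference was -0.14, 468 lay lower than Ptger4. Its unadjusted p was 0.0604 without A-FABP replicate 2, 0.0726 without PBS control replicate 1 and 0.0555 without PBS control replicate 2.

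Ptger2, the gene of the EP2 receptor, measured 4.45 and 4.66 with A-FABP, against 4.81 and 4.76 with PBS. The groups did not overlap, but the A-FABP arrays were further from each other than the nearest arrays of the groups were. The difference was -0.23 ± 0.11 (95% CI -0.53 to 0.08, limma adjusted p = 0.403), and it was -0.12 without A-FABP replicate 1. Genes at a like level had a median of -0.12.

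Ptger3, the gene of the EP3 receptor, measured 5.49 and 5.69 with A-FABP, against 5.48 and 5.62 with PBS, so the groups overlapped. Its difference of 0.04 ± 0.12 had a 95% CI from -0.29 to 0.36 (limma adjusted p = 0.895), and its sign turned when A-FABP replicate 2 (-0.06) or PBS control replicate 1 (-0.03) was left out. The interval leaves room for changes in either direction.

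**Figure D2:**
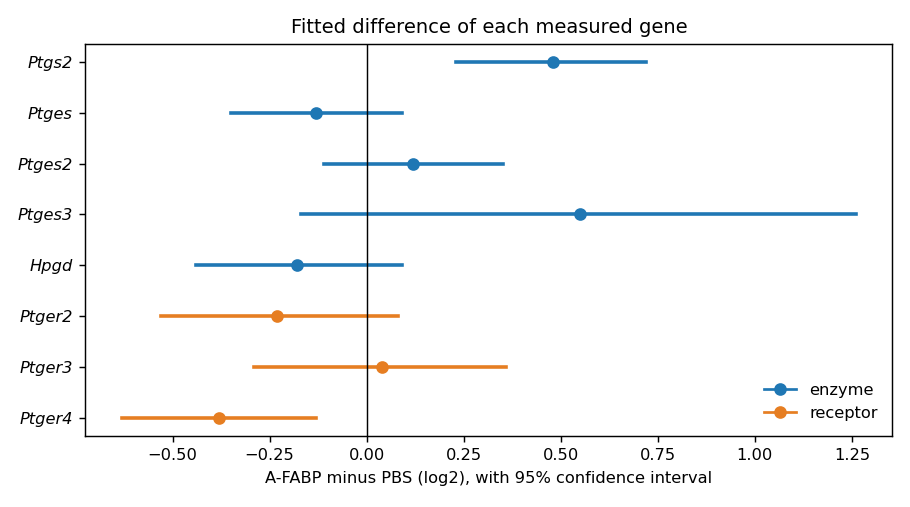
Fitted difference (A-FABP minus PBS, log2) of each measured gene as a point with its 95% confidence interval from the limma fit, enzymes in blue and receptors in orange. The intervals of Ptgs2 (0.23 to 0.72) and Ptger4 (-0.63 to -0.13) lie on opposite sides of 0, and the other 6 cross it.

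Set side by side, 3 of 5 enzymes lay above 0 with A-FABP (Ptgs2, Ptges2 and Ptges3) and 1 of 3 receptors did (Ptger3), beside 47.6% of all genes. The median difference was 0.12 for the enzymes and -0.23 for the receptors, against -0.01 over all genes. The enzymes' median was -0.01 without Ptges3 and also -0.01 without Ptgs2, and the receptors' median was -0.12 without A-FABP replicate 1. Per array, the median shift of the enzymes from the PBS mean was 0.08 and 0.16 with A-FABP, against -0.05 and 0.05 with PBS, and that of the receptors was -0.31 and -0.12 with A-FABP, against 0.02 and -0.02 with PBS. All 3 receptors and Hpgd were dim, and differences depended on brightness. The median difference was -0.13 among genes at mean levels of 5 to 7, where Ptges3, Ptger3, Ptger4 and Hpgd lie, and 0.09 at levels of 7 to 9, where Ptgs2 and Ptges2 lie. The part of level in the gap between enzymes and receptors was not tested. Arrays of the groups did not overlap in 7 of the 8 genes (3 higher and 4 lower with A-FABP), where 53.5% of all genes show this (26% higher and 27.5% lower).

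The rest of the pathway was described from 7 further lists. Of their 106 entries, 95 were matched to a measured gene. A second name of a gene already matched in a list was not counted. No member of these lists passed the adjusted threshold. Among 17 genes that release arachidonic acid or its endocannabinoid precursors, 8 lay above 0 and 9 below, with a median of -0.02. Pla2g4a, the gene of the cytosolic phospholipase A2 that feeds the cyclooxygenases, measured 9.31 and 9.40 with A-FABP, against 9.05 and 9.25 with PBS, a difference of 0.21 ± 0.11. The diacylglycerol lipase gene Daglb lay at 0.31 ± 0.09, at 8.66 and 8.54 with A-FABP, against 8.32 and 8.26 with PBS. The dim secreted phospholipase gene Pla2g2f lay at -0.44 ± 0.16 and the lipase gene Abhd6 at -0.21 ± 0.09. At an unadjusted p under 0.05 the list held 1 gene in each direction, beside 4.81% higher and 8.24% lower over all genes. The list's median turned to 0.05 after median centring, where the median over all genes was also 0.05.

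Of 11 genes that carry prostaglandins across membranes or break them down, 7 lay above 0 with a median of 0.14, where 47.6% of all genes lay above 0. At an unadjusted p under 0.05, 2 of the 11 were higher, as were 4.81% of all genes. These 2 were the organic anion transporter genes Slco1a5 and Slco4a1. Slco1a5 measured 7.15 and 6.96 with A-FABP, against 6.44 and 6.66 with PBS, a difference of 0.50 ± 0.13. Slco4a1 measured 7.08 and 7.34 with A-FABP, against 6.90 and 6.71 with PBS, a difference of 0.41 ± 0.14. Slc22a6, a renal organic anion transporter gene, lay at -0.28 ± 0.12 and the reductase gene Zadh2 at 0.18 ± 0.08. The prostaglandin uptake transporter gene Slco2a1 overlapped between groups at -0.03 ± 0.13, while Abcc4, the gene of an exporter of prostaglandin E2, lay at 0.14 ± 0.08.

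The synthases of other prostanoids had a median of -0.07, with 3 of 8 above 0. Cbr1, a carbonyl reductase gene, measured 5.98 and 5.88 with A-FABP, against 6.20 and 6.19 with PBS, and its difference was -0.27 ± 0.09. Tbxas1 (thromboxane synthase) lay at -0.14 ± 0.09, Ptgds and Hpgds (the prostaglandin D synthases) at 0.14 ± 0.10 and 0.13 ± 0.14. Among 5 measured genes listed for receptors of other prostanoids, 2 lay above 0 (47.6% of all genes did) and the median was -0.07. That median was 0.02 without A-FABP replicate 2 or PBS control replicate 2. The list holds Ptgfrn, the gene of a regulator of the prostaglandin F receptor, at 0.03 ± 0.08. Without Ptgfrn, a setting chosen after seeing the data, 1 of 4 lay above 0 and the median was -0.17. The thromboxane receptor gene Tbxa2r lay lower, at 6.41 and 6.27 with A-FABP, against 6.68 and 6.72 with PBS (-0.36 ± 0.09). The prostacyclin receptor gene Ptgir lay higher, at 7.37 and 7.42 with A-FABP, against 7.20 and 6.98 with PBS (0.31 ± 0.11). Ptgfr, the prostaglandin F receptor gene, lay at -0.26 ± 0.12 and the prostaglandin D receptor gene Ptgdr at -0.07 ± 0.12. At an unadjusted p under 0.05 the synthases held 1 lower gene, Cbr1, and the receptors 1 lower gene, Tbxa2r, where 8.24% of all genes reach it.

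The lipoxygenase and leukotriene genes, the other branch of arachidonate metabolism, had a median of -0.08, with 5 of 14 above 0. The median ran from -0.14 (without PBS control replicate 2) to -0.04 (without PBS control replicate 1), and its sign turned after cyclic loess (0.01) and with only probe sets at or above the median level (0.05). Alox15 lay at -0.31 ± 0.09, Alox8 at -0.36 ± 0.14, Alox12 at -0.17 ± 0.08 and Alox12e at -0.21 ± 0.12, all lipoxygenase genes below or near the array medians. Only Alox15 had an unadjusted p under 0.05 in this list, where 8.24% of all genes were lower at that level.

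Genes listed for the response to cyclic AMP, the messenger of EP2 and EP4, lay below 0 in 14 of 18 cases, where 52.4% of all genes did. Some of the 14 lay close to 0, among them Gem (-0.03 ± 0.12), Pde4d (-0.01 ± 0.08) and Pde4b (-0.00 ± 0.08). The list's median was -0.06. It became 0.00 after median centring, which moved the median over all genes from -0.01 to 0.05. Sik1, a kinase gene induced through CREB, measured 10.61 and 10.50 with A-FABP, against 10.82 and 10.88 with PBS (-0.30 ± 0.09). Fos, a general immediate early gene, measured 6.97 and 6.65 with A-FABP, against 7.26 and 7.39 with PBS (-0.52 ± 0.15), and the clock gene Per1 lay at -0.22 ± 0.08. Nr4a3, an orphan nuclear receptor gene of the same response, lay on the higher side, at 7.31 and 7.32 with A-FABP, against 7.08 and 6.82 with PBS (0.37 ± 0.12). Crem lay higher too, without overlap (0.21 ± 0.09), and Nr4a1 overlapped at 0.08 ± 0.12. At an unadjusted p under 0.05 the list held 2 lower genes and 1 higher one, beside shares of 8.24% and 4.81% over all genes.

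Among 22 regulators of Ptgs2 transcription and mRNA stability, 9 lay above 0 and the median was -0.04. It became 0.02 after median centring, beside 0.05 over all genes at that setting. By limma, 4 of the 22 were lower and 0 higher at an unadjusted p under 0.05, beside 8.24% and 4.81% over all genes. Zfp36 encodes tristetraprolin, which binds AU-rich elements, including those of Ptgs2 mRNA, and speeds decay. It averaged 10.58 with A-FABP and 11.06 with PBS (n = 2 each), with no overlap between the groups and a difference of -0.48 ± 0.09. Nfkbia, the gene of the NF-kB inhibitor, measured 11.76 and 11.62 with A-FABP, against 12.30 and 12.46 with PBS (-0.69 ± 0.11). Cebpa, a C/EBP family gene, lay at -0.28 ± 0.10, and Fos belongs to this list too. The arrays of Rela, the gene of the NF-kB subunit p65, overlapped at -0.01 ± 0.08, as did those of Creb1 at 0.05 ± 0.08.

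**Figure D3:**
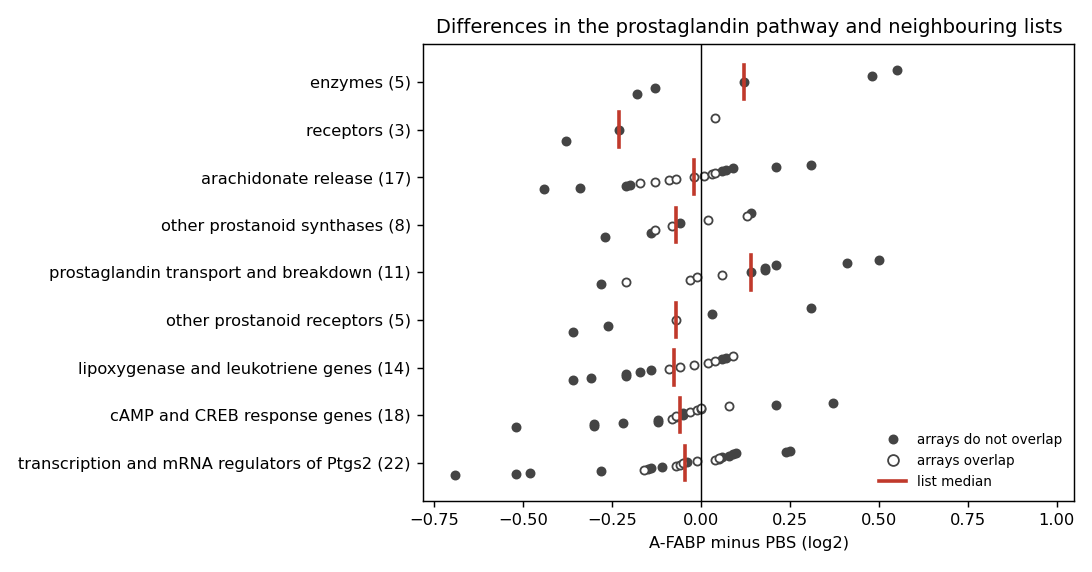
Differences (A-FABP minus PBS, log2) of each measured gene in the enzyme and receptor groups and 7 further lists, with the number of genes in brackets. Filled points are genes whose arrays do not overlap between groups, open points overlap, and red bars mark list medians, which run from -0.23 for the receptors to 0.14 for transport and breakdown.

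The genes closest to Ptgs2 in pattern, by Euclidean distance over the 4 arrays of values centred per gene, were Mthfsl (0.029), Mybl1 (0.042), Olfr603 (0.053), Fcgr2b (0.055) and Bace1 (0.062). They were taken from 11089 genes at or above the median level. Those closest to Ptger4, among 11090 such genes, were Bhlhe41 (0.017), Adm (0.028), Thsd1 (0.032), Krtap5-1 (0.038) and Tmem233 (0.039). With 4 arrays such likeness is common: 1246 genes correlated with Ptgs2 and 428 with Ptger4 at r of at least 0.95.

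Markers of cell types were measured beside these genes. They are called dim or bright here only against the array medians. The mean levels of 11 epithelial markers ran from 4.79 to 8.79 with a median of 6.01. Krt8 held the top value, at 8.76 and 8.85 with A-FABP, against 8.83 and 8.74 with PBS, and Epcam was dim, at 4.45 and 4.85 with A-FABP, against 4.79 and 5.05 with PBS. The 10 fibroblast markers had mean levels from 4.58 to 11.20 with a median of 6.18. Pdgfra was the top one. Pdgfrb (means of 9.88 with A-FABP and 9.74 with PBS) and Col3a1 (9.65 and 9.64) were bright too. Col1a1 and Dcn also lay above the array medians, while Lum, Postn, Fap and Col1a2 were dim. Macrophages and other leukocytes carry Ptger2 and Ptger4, and of 11 leukocyte markers 8 lay below 0 with A-FABP (52.4% of all genes did), with a median of -0.21 beside the -0.13 of all genes at levels of 5 to 7. By limma, 3 of the 11 were lower and 0 higher at an unadjusted p under 0.05, beside 8.24% and 4.81% over all genes. These 3, all dim, were Ptprc (-0.45 ± 0.12), Tyrobp (-0.27 ± 0.08) and Itgam. Itgam measured 5.15 and 5.12 with A-FABP, against 5.50 and 5.44 with PBS. Cd14 (0.28 ± 0.13), Csf1r (0.16 ± 0.09) and Lyz2 (0.04 ± 0.18) lay above 0. Other marker lists also held genes at an unadjusted p under 0.05 by limma. These were 1 higher epithelial marker of 11 (Ocln) and 1 lower fibroblast marker of 10 (Col1a2). Of 8 endothelial markers 1 was lower (Tie1), and of 8 adipocyte markers 2 were lower (Cidea and Cebpa). The summed linear signal of the leukocyte list, most of it from Cd68, was 7250 and 7746 with A-FABP, against 7851 and 7938 with PBS. Bright probe sets weigh most in such a sum, so it serves only to set arrays side by side. Without Cd68, a setting chosen after seeing the data, the other 10 markers summed to 597 and 600 with A-FABP. With PBS they summed to 613 and 612. No marker can be read as 0 on this scale, since RMA leaves background in dim values, and the part of these markers in the Ptger4 difference was not tested. In cultures of many cells, fewer cells carrying a transcript and less of it per cell cannot be told apart.

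**Figure D4:**
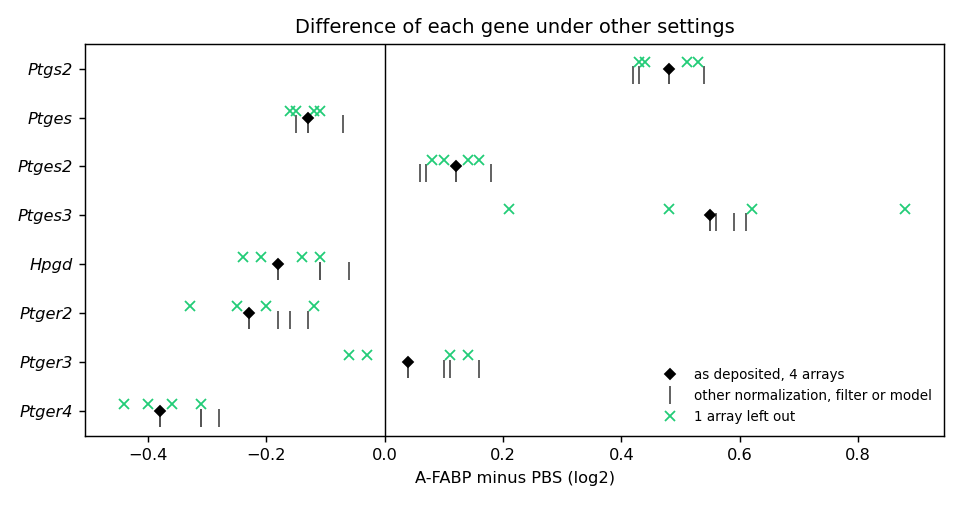
Difference (A-FABP minus PBS, log2) of each measured gene as deposited (diamonds), under another normalization, filter or model (bars) and with 1 array left out (crosses). Ptgs2 runs from 0.42 to 0.54 and Ptger4 from -0.44 to -0.28, while Ptges3 runs from 0.21 to 0.88 and Ptger3 crosses 0.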

How the data were processed

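Per the submitters' processing notes, the deposited values are log2 expression made with RMA (background correction, normalization between arrays, probe set summary) and Partek 6.6. No genome build was given with them. The platform annotation names 1 gene for 23521 of 41345 probe sets, and the one with the highest mean over the 4 arrays stood for a gene (22180 genes). Differences were fitted with limma 3.58.1 (lmFit, eBayes) in R 4.3.3 on all probe sets, two-sided, with Benjamini-Hochberg adjustment and a threshold of 0.05. Groups came from the titles. The fit had 2 residual and 1.91 prior degrees of freedom, and the number of arrays limits the precision. The fit was also run on simulated arrays. Their noise was independent and normal, so that run does not show how the p-values behave on the real arrays. P-values measure the spread between these arrays, which may be technical. The members and lists were chosen with earlier results of these data known. Named genes were all members, up to 4 genes per list with the lowest unadjusted p, and the 5 nearest patterns to Ptgs2 and Ptger4. Pla2g4a fell under this rule. Slco2a1, Abcc4, Rela, Creb1, Ptgfrn, Crem, Nr4a1, Gem, Pde4d, Pde4b and the cell type markers were named after their values were seen. List symbols were matched by symbol or by RefSeq gene ID. Alternatives were another normalization, a filter on dim probe sets, other variance moderation, other probe set choices, a replicate block and each array left out.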

Additional observations from a re-analysis of the deposited data

How the results depend on the processing

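The count of probe sets and of measured members past the adjusted threshold was 0 under every alternative that kept all 4 arrays. By limma, 6258 of 41345 probe sets had an unadjusted p under 0.05 as deposited. Alternatives with all probe sets and arrays gave 5314 (cyclic loess) to 6876 (trend and robust). With only probe sets at or above the median level it was 4347 of 20673. Of 22180 genes it was 4009 with 1 probe set per gene and 3987 with the mean of a gene's probe sets. Ptgs2 stayed between 0.42 and 0.54 and Ptger4 between -0.44 and -0.28. Of the 8 genes, 7 kept their sign under every alternative that kept their probe set, and Ptger3 (0.14 at most with an array left out) turned to -0.06 without A-FABP replicate 2 and -0.03 without PBS control replicate 1. Ptges ran from -0.16 to -0.07, Ptges2 from 0.06 to 0.18, Hpgd from -0.24 to -0.06 and Ptger2 from -0.33 to -0.12. With all 4 arrays kept, the members at an unadjusted p under 0.05 numbered 1 to 3, with Ptges added by limma's trend and robust settings. The enzymes' median was 0.06 after quantile normalization, 0.07 after cyclic loess, 0.18 after median centring and 0.30 with only probe sets at or above the median level (which drops Hpgd). Over all genes the median was 0.05 after median centring and 0.04 with that level filter. The enzymes' median was -0.01 without Ptges3 or without Ptgs2, settings chosen after seeing the data. With an array left out it ran from 0.08 to 0.16, and the receptors' median from -0.31 to -0.12. No receptor passed the level filter, so that setting gives none. Deviations of same-numbered arrays from their group means correlated at -0.008886, so the numbers were not taken as pairs. With the replicate block, Ptgs2 lay at 0.48 and Ptger4 at -0.38, each with a limma adjusted p of 0.377. The medians of the 7 further lists ran from -0.17 to 0.20 over all alternatives. Signal near background limits what can be said of the receptors and Hpgd.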
